A study of Mus musculus with 15 samples.

Results

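The 15 aortas of 1 experiment differed in how much Cdh5 they held, and the 5 libraries with the most were set against the 5 with the least. Cdh5 encodes VE-cadherin, so the ranking follows an endothelial transcript through whole tissue. Libraries were ranked by CPM, the sequencing unit that sets each count against its library total, here the column total of the deposited table. Chosen by this value, the 5 highest form the Cdh5-high libraries, the 5 lowest the Cdh5-low libraries, and the other 5 of the 15 lie between them as the middle libraries. The ranking used measured values of Cdh5, so its own difference is given without a test, and a call on another gene says only that the gene moved with Cdh5 over these libraries.

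Polyadenylated RNA was sequenced from the thoracic aorta of adult male wild-type C57BL/6 mice aged 10 to 12 weeks, 1 mouse per library. Mice received by gavage 100 uL of celecoxib at 30 mg/kg, of rofecoxib at 10 mg/kg, or of the PEG-400 vehicle, with 5 mice each, and tissue was taken 6 h later at ZT11. Celecoxib and rofecoxib inhibit cyclooxygenase-2. The Cdh5-high libraries came from 1 celecoxib, 2 rofecoxib and 2 vehicle mice, and the Cdh5-low libraries from 2 celecoxib, 2 rofecoxib and 1 vehicle mouse, so each set mixed all 3 treatments.

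Endothelial cells form a single layer on the inner face of the aorta, over a wall made mostly of smooth muscle and surrounded by adventitia and fat. VE-cadherin holds neighbouring endothelial cells together at adherens junctions, and the layer regulates tone, clotting and leukocyte entry. Small vessels of the adventitia and of attached fat carry endothelium too. In whole tissue, fewer cells of a type and less RNA per cell cannot be told apart.

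Cdh5 was at 103.7 CPM in vehicle 4, 96.0 in celecoxib 5, 95.2 in rofecoxib 3, 94.9 in rofecoxib 1 and 93.9 in vehicle 1. It was at 75.5 CPM in vehicle 2, 67.3 in rofecoxib 4, 56.5 in celecoxib 2, 47.8 in rofecoxib 2 and 46.7 in celecoxib 3. The Cdh5-high mean was 96.8 ± 3.94 CPM and the Cdh5-low mean 58.8 ± 12.5 CPM (SD, n = 5 each), a ratio of 1.65. The upper boundary cut through near-equal libraries, with 93.9 CPM just inside it in vehicle 1 and 93.3 CPM just outside it in vehicle 3. The lower boundary lay between 75.5 CPM in vehicle 2 and 81.3 CPM in celecoxib 1. The plot of Cdh5 by library shows a plateau over the higher ranks and a steep tail of low libraries.

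**Figure D1:**
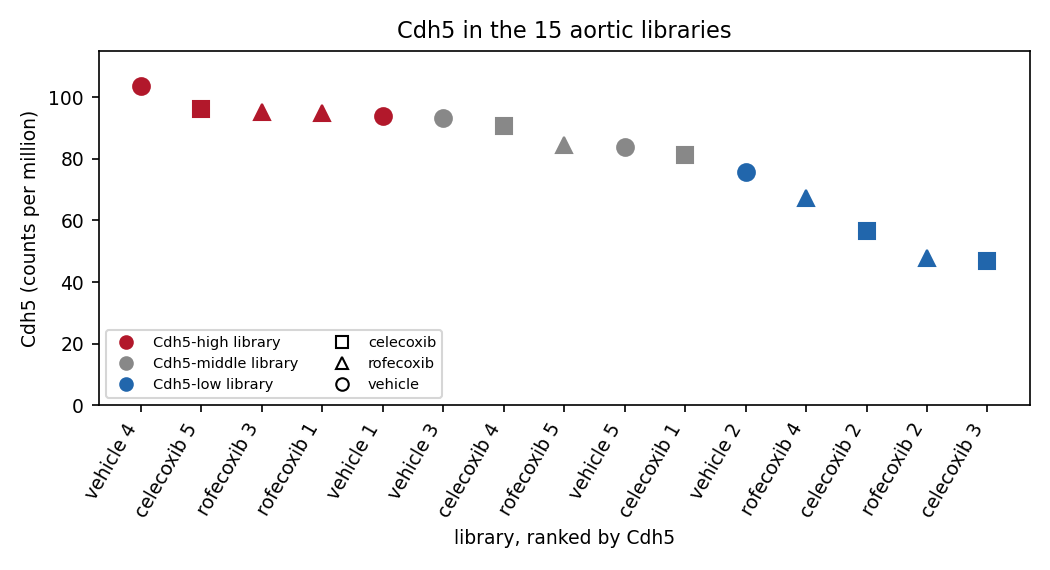
Cdh5 in CPM on the deposited column totals (vertical axis) for each of the 15 libraries in rank order, with colour for the Cdh5-high, middle and low libraries and shape for the treatment. The 5 highest libraries lie between 93.9 and 103.7 CPM and the 5 lowest between 46.7 and 75.5 CPM.

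The deposited totals ranged from 30937046 to 30967115 counts, and 19158 to 19746 genes had at least 1 count per library. The 10 most abundant genes took 8.92 ± 0.308% of the counts in Cdh5-high libraries and 9.66 ± 0.117% in Cdh5-low libraries (SD, n = 5 each). That difference gave an exact two-sided permutation p of 0.00794, the smallest that 5 against 5 allows, and 0.0317 after adjustment over 4 library measures. The share took the 10 largest counts of each library. Over all 15 libraries together, Acta2, Myh11, Tagln and Myl9, which encode smooth muscle contractile proteins, were 4 of the 10 most abundant genes. The deposited total (adjusted exact permutation p = 0.0847), the number of genes detected (0.286) and the scaling factor (0.0847) did not pass.

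Of 15133 genes tested, 4 passed an adjusted p of 0.05 in edgeR's quasi-likelihood test, 0.0264% of those tested, and all 4 were higher in the Cdh5-high libraries. They were Shank3, Srgn, Sh3bp5 and Ly9. None was lower, and the smallest adjusted p among lower genes was 0.146. At an unadjusted p under 0.05, 886 genes were higher (5.85%) and 409 lower (2.70%). All 5 Cdh5-high libraries stood above all 5 Cdh5-low libraries for 235 genes (1.55%), and below them for 160 (1.06%). The median log2 fold change over all genes tested was 0.00 (0.000102). CPM values from here on use library sizes with TMM scaling (a trimmed mean over genes), and fold changes are Cdh5-high over Cdh5-low.

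Shank3, which encodes a scaffold protein best known from synapses (mm9 chr15:89329852-89390894), was at 43.7, 36.2, 41.7, 36.5 and 34.5 CPM in the Cdh5-high libraries, in falling order of Cdh5. It was at 26.4, 25.3, 24.8, 20.9 and 18.8 CPM in the Cdh5-low libraries. The groups did not overlap, and Shank3 rose by 0.73 on the log2 scale (SE 0.0991, adjusted p = 0.0191). Shank3 shares its locus with Gm15609, and without stated use of strand their reads cannot be told apart. Over the 15 libraries its log2 CPM had a Pearson r of 0.944 with Cdh5.

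Srgn encodes serglycin, a proteoglycan of storage granules in blood and endothelial cells (mm9 chr10:61956379-61990401). It was at 24.5, 22.1, 22.3, 23.4 and 24.5 CPM in the Cdh5-high libraries and at 16.7, 15.4, 15.5, 10.9 and 14.2 CPM in the Cdh5-low libraries. There was no overlap, and Srgn rose by 0.68 on the log2 scale (SE 0.0932, adjusted p = 0.0191). Its middle libraries, at 16.9 to 20.1 CPM, lay below every Cdh5-high library and above every Cdh5-low one.

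Sh3bp5 encodes a mitochondrial adaptor that binds the kinase JNK (mm9 chr14:32172864-32249466). It was at 19.6, 17.0, 18.4, 18.5 and 18.7 CPM in the Cdh5-high libraries and at 12.8, 12.2, 12.9, 9.51 and 9.94 CPM in the Cdh5-low libraries. The groups did not overlap, and Sh3bp5 rose by 0.69 on the log2 scale (SE 0.0970, adjusted p = 0.0198). Capn7 overlaps it in the annotation, so its counts carry the same uncertainty as those of Shank3.

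Ly9 encodes a receptor of the SLAM family on lymphocytes (mm9 chr1:173518553-173537743). It was at 0.381, 0.356, 0.252, 0.387 and 0.354 CPM in the Cdh5-high libraries and at 0.0987, 0.0964, 0.0644, 0.0667 and 0.0656 CPM in the Cdh5-low libraries. Both groups stood apart, and Ly9 rose by 2.09 on the log2 scale (SE 0.309, adjusted p = 0.0250). The gene is close to the limit of detection, and the middle libraries reached as low as 0.128 CPM. Its Cdh5-low levels lay under the minimum of the filter on low counts, so Ly9 entered the test only through the other libraries. Ly9 did not pass with no filter on low counts or with the limma-voom method, while Shank3, Srgn and Sh3bp5 did.

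These 4 calls did not survive every choice of libraries. No gene passed without celecoxib 3, without rofecoxib 1, without rofecoxib 3, without rofecoxib 4, without vehicle 1 or without vehicle 4, while 18 passed without celecoxib 1, 10 without vehicle 2 and 1 without rofecoxib 2. No gene passed when the 10 libraries were fitted alone either. With treatment as a covariate Shank3, Sh3bp5 and Ly9 no longer passed (adjusted p = 0.0579, 0.0614 and 0.0662), while Srgn did (adjusted p = 0.0395), and with the adipocyte list mean as a covariate none of the 4 passed (adjusted p from 0.151 to 0.168). DESeq2 called 138 genes (0.912%), 123 higher and 15 lower, all 4 among the higher.

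**Figure D2:**
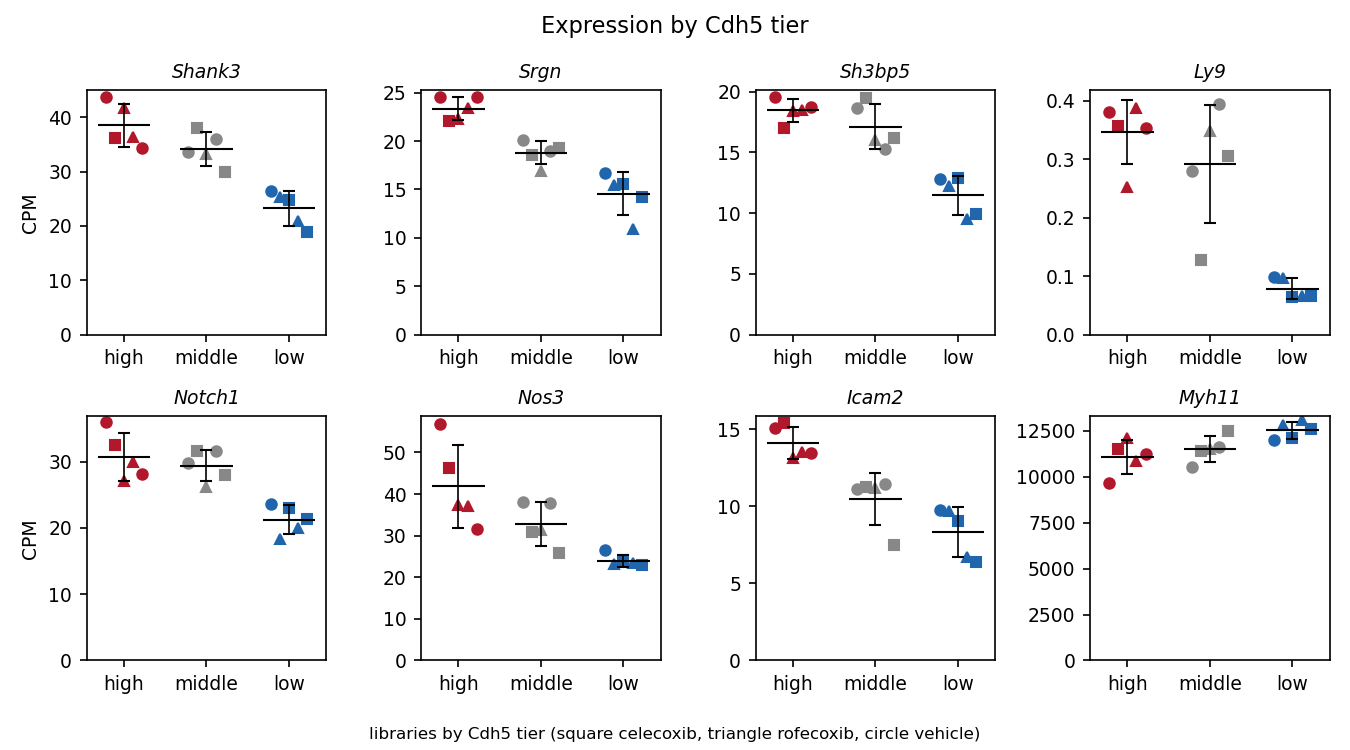
Scaled CPM (vertical axis, linear from 0) of 8 genes in the Cdh5-high, middle and low libraries (5 each), with 1 point per library, a bar at the mean and whiskers of 1 SD. Shank3, Srgn, Sh3bp5 and Ly9 passed the test and do not overlap between the high and low libraries, and Notch1, Nos3 and Icam2 show the same order without passing.

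The promoters of 3 of the 4 called genes, Shank3, Srgn and Sh3bp5, are shown. Each gene was called for its difference between the Cdh5 tiers, so that they moved together follows from the choice. Shared regulation was not tested. Each sequence is the 250 bases before a transcription start in RefSeq (GRCm38.p6), taken at the outermost start listed, 5′ to 3′ on the gene's strand. Capitals mark the motif AGGAAG or its reverse complement CTTCCT, 1 of the forms of site that ETS factors bind. Forms of the ETS site with other flanking bases were not searched, so 0 matches does not mean that a window lacks an ETS site. The Shank3 window is chr15:89499358-89499607 (+), the Srgn window chr10:62527446-62527695 (-) and the Sh3bp5 window chr14:31436101-31436350 (-).
Shank3: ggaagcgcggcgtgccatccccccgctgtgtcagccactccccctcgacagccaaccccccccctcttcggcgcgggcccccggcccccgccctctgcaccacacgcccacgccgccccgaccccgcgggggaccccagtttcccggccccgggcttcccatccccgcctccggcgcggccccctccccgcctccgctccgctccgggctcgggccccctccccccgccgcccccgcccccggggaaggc
Srgn: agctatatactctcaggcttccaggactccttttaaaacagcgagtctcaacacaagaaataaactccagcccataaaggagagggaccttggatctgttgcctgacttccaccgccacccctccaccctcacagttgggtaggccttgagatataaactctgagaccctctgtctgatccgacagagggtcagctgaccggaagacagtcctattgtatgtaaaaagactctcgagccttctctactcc
Sh3bp5: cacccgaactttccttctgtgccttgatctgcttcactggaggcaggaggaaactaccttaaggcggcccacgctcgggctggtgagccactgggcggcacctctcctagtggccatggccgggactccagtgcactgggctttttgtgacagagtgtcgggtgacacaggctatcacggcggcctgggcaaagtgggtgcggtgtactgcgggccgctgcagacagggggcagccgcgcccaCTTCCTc
The motif had 0 matches in the Shank3 window, 0 in the Srgn window and 1 in the Sh3bp5 window. Counting every listed start, it was in 0 of 1, 0 of 2 and 1 of 2 windows. It was in 29.48% of 32851 mouse promoter windows of that length, and no other motif was searched.

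No gene of 7 endothelial lists passed the adjusted threshold, yet most lay on the higher side. Of 144 distinct members tested, 124 had a positive log2 fold change, with a median of 0.45 against 0.00 over all genes. At an unadjusted p under 0.05, 79 were higher and 2 lower, beside 5.85% and 2.70% of all genes. For 29 members all Cdh5-high libraries stood above all Cdh5-low ones, and for 0 the reverse held, beside 1.55% and 1.06% of all genes. By summed level, given list by list below, only the VEGF, angiopoietin and related list did not overlap between the groups. The lists were drawn up with earlier results of these data known. DESeq2 called 29 of the 144, beside 0.912% of all genes.

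Junction and surface genes lay at a median of 0.51 in log2 fold change, with 26 of 27 positive. Their sums overlapped, at 3309 to 3416 CPM in Cdh5-high libraries and 2981 to 3471 CPM in Cdh5-low ones. Pecam1, which encodes the adhesion protein PECAM-1, was at 396, 399, 321, 379 and 286 CPM in the Cdh5-high libraries and at 259, 251, 299, 264 and 355 CPM in the Cdh5-low libraries. The groups overlapped, since celecoxib 3, lowest for Cdh5, had more Pecam1 than 2 Cdh5-high libraries (log2 fold change 0.32, adjusted p = 0.517). Its Pearson r with Cdh5 was 0.446, and 8 of 15 libraries kept their tier when ranked by Pecam1. Icam2, an adhesion molecule for leukocytes, averaged 14.1 ± 1.04 CPM and 8.33 ± 1.65 CPM in Cdh5-high and Cdh5-low libraries with no overlap, at a log2 fold change of 0.76 (adjusted p = 0.0861).

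Eng, a co-receptor for TGF-beta ligands, averaged 171 ± 10.6 CPM in Cdh5-high libraries and 127 ± 10.6 CPM in Cdh5-low ones without overlap (log2 fold change 0.43, adjusted p = 0.0861). Ptprb, a phosphatase that acts on VE-cadherin and Tie2, averaged 133 ± 12.5 and 94.2 ± 12.3 CPM in the same order, also without overlap (0.50, adjusted p = 0.0861). F11r, which encodes the junction protein JAM-A, was at 34.0 to 36.4 CPM in Cdh5-high libraries and 25.0 to 30.1 CPM in Cdh5-low ones. Smaller differences stood beside these, at 0.16 for Esam (adjusted p = 0.539) and 0.46 for the tight junction gene Cldn5 (adjusted p = 0.419), both with overlapping groups. Emcn, a sialomucin of veins and capillaries, was at 0.90 without overlap (adjusted p = 0.309), while Robo4 and Plvap, a protein of endothelial diaphragms, were at 0.82 and 0.80 with overlap (adjusted p = 0.147 and 0.478). Mcam lay the other way at -0.18 (adjusted p = 0.532), and smooth muscle carries it as well.

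Transcription factors had a median of 0.39, with 18 of 21 tested members positive. The summed list was at 872 to 992 CPM in Cdh5-high libraries and 712 to 879 CPM in Cdh5-low ones. Sox17, a factor of arterial endothelium, averaged 11.5 ± 0.923 CPM in Cdh5-high libraries and 8.17 ± 1.08 CPM in Cdh5-low ones, without overlap (log2 fold change 0.50, adjusted p = 0.196). Sox18, Fli1 and Tal1 did not overlap either, at 0.72, 0.35 and 0.62 (adjusted p = 0.340, 0.284 and 0.304). Erg, an ETS factor of endothelium, was at 73.5 to 93.9 CPM in Cdh5-high libraries and 78.1 to 93.0 CPM in Cdh5-low ones (0.02, adjusted p = 0.927). Foxf1a was at -0.36 (adjusted p = 0.565), and the flow-responsive Klf2 at 0.27 with wide overlap (adjusted p = 0.792).

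Genes of VEGF, angiopoietin and related signalling had a median of 0.48, with 14 of 14 receptor genes and 7 of 10 ligand genes positive. Summed, they were at 926 to 1063 CPM in Cdh5-high libraries and 662 to 823 CPM in Cdh5-low ones. Tie1 was at 75.3, 72.5, 67.8, 65.4 and 57.8 CPM in the Cdh5-high libraries, against 54.3, 46.3, 48.2, 35.6 and 28.8 CPM in the Cdh5-low libraries. No values overlapped (log2 fold change 0.67, adjusted p = 0.166). Tek, the angiopoietin receptor Tie2, was at 0.63 (adjusted p = 0.146) and Flt4, the receptor of lymphatic and some venous endothelium, at 0.90 (adjusted p = 0.109), both without overlap. Kdr, the main signalling receptor for VEGF, was at 0.84 with overlapping groups (adjusted p = 0.318), and the decoy receptor Flt1 at 0.26 (adjusted p = 0.464). Of the ligands, Vegfa was at 0.48 (adjusted p = 0.601), Angpt1 at 0.59 (adjusted p = 0.575) and Angpt2 at -0.01, with 59.0 to 83.6 CPM in Cdh5-high libraries and 55.5 to 88.0 CPM in Cdh5-low ones.

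Vasoactive and haemostatic genes had a median of 0.37, with 18 of 22 positive. Their sums overlapped widely, at 3651 to 4278 CPM in Cdh5-high libraries and 3646 to 4328 CPM in Cdh5-low ones. Nos3, the endothelial nitric oxide synthase, was at 56.9, 46.2, 37.3, 37.2 and 31.5 CPM in the Cdh5-high libraries and at 26.4, 23.2, 24.1, 23.5 and 22.8 CPM in the Cdh5-low libraries. The groups did not overlap (log2 fold change 0.80, adjusted p = 0.0861), and Atg9b and Gm15587 overlap the gene. Vwf, von Willebrand factor, averaged 219 ± 48.5 CPM in Cdh5-high libraries and 122 ± 33.9 CPM in Cdh5-low ones with overlap (0.85, adjusted p = 0.149). Thbd, the anticoagulant receptor thrombomodulin, was at 0.38 (adjusted p = 0.447). Sele and Vcam1, adhesion molecules induced in inflamed endothelium, were at 1.39 and 0.56 without overlap (adjusted p = 0.304 and 0.226), with Sele at 1.36 CPM or less in both groups.

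The treatments act on prostaglandin synthesis, and its genes were mixed. Of 21 tested prostanoid genes 17 were positive, with a median of 0.23 (0.13 without celecoxib 3). Ptgs1, cyclooxygenase-1, averaged 19.0 ± 2.97 CPM in Cdh5-high libraries and 12.1 ± 3.31 CPM in Cdh5-low ones (log2 fold change 0.65, adjusted p = 0.253). Ptgs2, cyclooxygenase-2, was at 0.11 (adjusted p = 0.942), with 90.8 CPM in celecoxib 5 and 18.0 to 33.7 CPM in the other Cdh5-high libraries, against 24.8 to 47.9 CPM in the Cdh5-low libraries. Ptgis, prostacyclin synthase, lay at -0.17 (adjusted p = 0.641). The transporters Abcc4 and Slco2a1 were at 0.50 and 0.59 (adjusted p = 0.134 and 0.208).

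Arterial and Notch pathway genes had the lowest endothelial median, 0.27, with 16 of 22 positive. Their summed level was not raised, at 4655 to 5370 CPM in Cdh5-high libraries and 4730 to 5829 CPM in Cdh5-low ones. Notch1 was at 35.9, 32.5, 27.0, 29.9 and 28.1 CPM in the Cdh5-high libraries and at 23.7, 18.2, 23.04, 19.9 and 21.3 CPM in the Cdh5-low libraries. The groups did not overlap (log2 fold change 0.53, adjusted p = 0.0735), and Notch1 passed when treatment was a covariate. Notch4 and the gap junction gene Gja5 did not overlap, at 0.60 and 0.65 (adjusted p = 0.113 and 0.304). The ligand Dll4 was at 0.37 (adjusted p = 0.627), and Heyl, a Notch target that smooth muscle also expresses, at -0.20 (adjusted p = 0.709). Cxcr4 was at 1.18 (adjusted p = 0.517), with 4.57 CPM in vehicle 4 and 1.20 to 2.08 CPM in the other Cdh5-high libraries, against 0.755 to 1.26 CPM in the Cdh5-low libraries.

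Microvascular and fat capillary genes had the highest endothelial median, 0.70, with 17 of 18 positive. For 1 of them all Cdh5-high libraries stood above all Cdh5-low ones, beside 1.55% of all genes. The summed list was at 3103 to 4837 CPM in Cdh5-high libraries and 2368 to 3271 CPM in Cdh5-low ones. Kank3 averaged 32.3 ± 6.97 CPM in Cdh5-high libraries and 20.7 ± 3.17 CPM in Cdh5-low ones without overlap (log2 fold change 0.64, adjusted p = 0.174). Cd36, a fatty acid transporter that adipocytes also express, averaged 341 ± 103 and 186 ± 52.1 CPM in the same order, with overlap (0.87, adjusted p = 0.304). Cyyr1 was at 0.70 with overlap (adjusted p = 0.147). Gpihbp1, which anchors lipoprotein lipase in capillaries, was at 0.71 (adjusted p = 0.342), Car4 at 0.82 (adjusted p = 0.215) and Fabp4 at 0.78 (adjusted p = 0.497). With 1 library left out, Fabp4 ran from 0.55 to 0.91, beside 0.53 to 0.92 for the adipocyte gene Adipoq. The microvascular and fat capillary median was 0.39 with the adipocyte list mean as a covariate. Venous and lymphatic genes had a median of 0.46, with 13 of 15 positive, among them Stab1 at 0.64 (adjusted p = 0.165) and Lyve1 at 0.46 (adjusted p = 0.660). Summed, the venous and lymphatic list was not raised, at 1185 to 1536 CPM in Cdh5-high libraries and 1377 to 1552 CPM in Cdh5-low ones. Prox1, which specifies lymphatic endothelium, was too low to be tested.

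Genes with a gene name and a mean of at least 1 CPM were ranked by Pearson r of log2 CPM with Cdh5 over the 15 libraries, as a description. The 10 most like Cdh5 were Gimap6, Shank3, Sh3bp5, Afap1l1, Srgn, Gpr116, Arap3, B3gnt3, Rasip1 and Smagp. Their r ran from 0.948 for Gimap6 to 0.898 for Smagp. The 15 libraries share their depth scaling and the 3 treatments. Gimap6, of a GTPase family best known from lymphocytes, averaged 14.7 ± 0.664 CPM in Cdh5-high libraries and 10.8 ± 1.83 CPM in Cdh5-low ones without overlap (log2 fold change 0.45, adjusted p = 0.146). Rasip1, an effector of small GTPases needed for vessel lumens, was at 0.68 (adjusted p = 0.0861). Parvb, a focal adhesion protein and the next gene after the 4 called, averaged 13.2 ± 2.27 CPM and 7.17 ± 1.19 CPM in Cdh5-high and Cdh5-low libraries without overlap (0.88, adjusted p = 0.0735).

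Smooth muscle contractile genes lay on the lower side. Of 24 members 21 were negative, with a median of -0.17, 14 lower at an unadjusted p under 0.05 (2.70% of all genes) and 5 with all Cdh5-high libraries below all Cdh5-low ones (1.06% of all genes). Their summed level was 63265 to 69997 CPM in Cdh5-high libraries and 72858 to 81700 CPM in Cdh5-low libraries, without overlap. Tagln averaged 8327 ± 332 CPM in Cdh5-high libraries and 9472 ± 261 CPM in Cdh5-low ones (log2 fold change -0.19, adjusted p = 0.446). Myh11, smooth muscle myosin, was at -0.18 with overlap (adjusted p = 0.419), and Tpm2 at -0.22 without (adjusted p = 0.224). Lower genes were ranked by p among those with a gene name and a mean of at least 1 CPM. The 5 of smallest p were Sh3bgr at -0.26, Fam164c at -0.40, Mybl1 at -0.43, Cldn22 at -0.51 and Mpv17l at -0.34, with adjusted p from 0.146 to 0.208. Sh3bgr was at 255 to 306 CPM in Cdh5-high libraries and 325 to 352 CPM in Cdh5-low libraries.

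**Figure D3:**
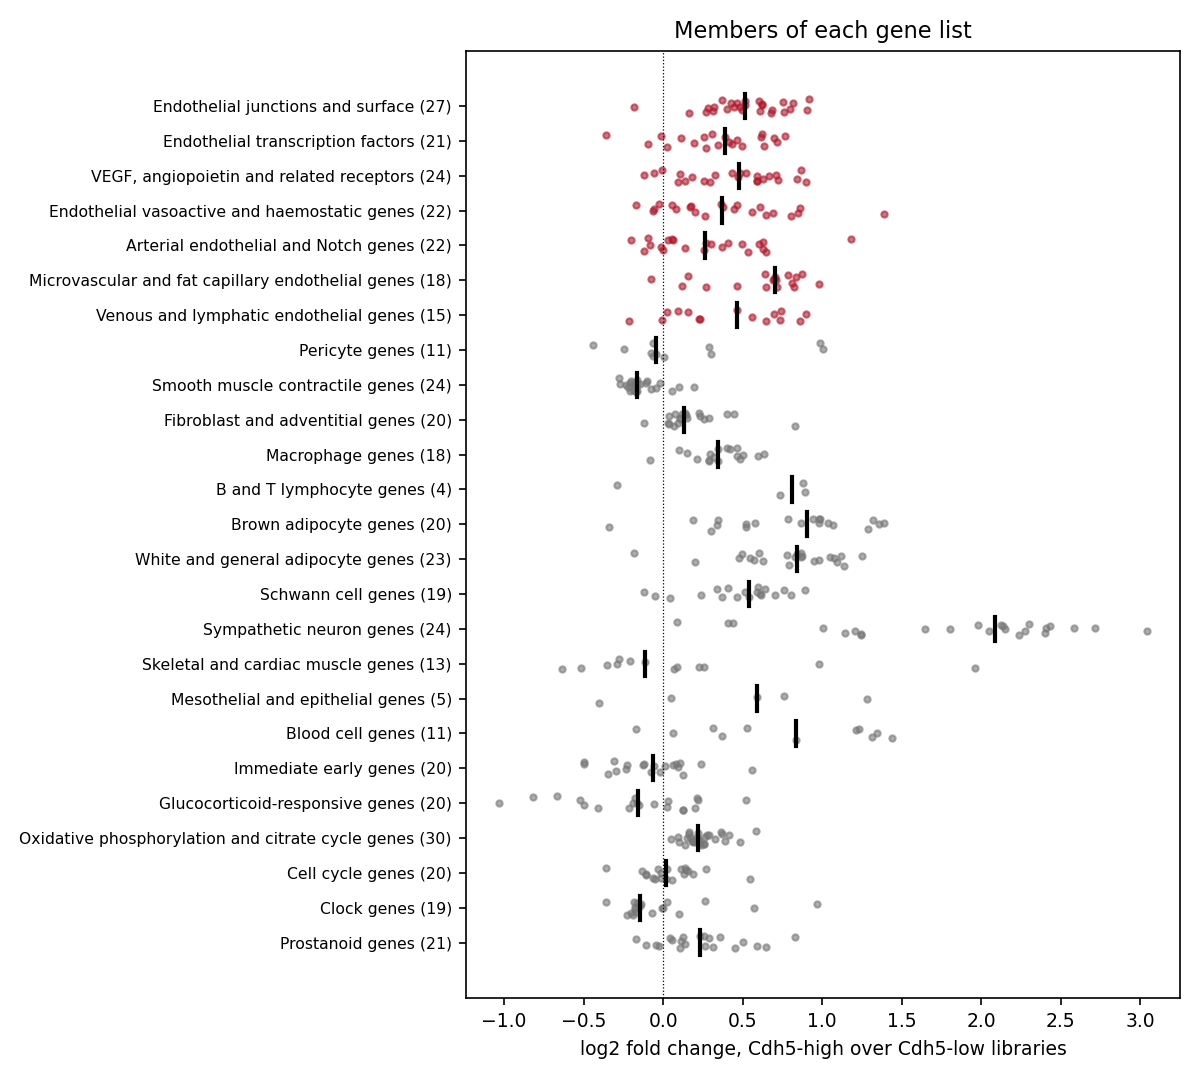
Log2 fold change, Cdh5-high over Cdh5-low libraries (horizontal axis), of each tested member of 25 gene lists (points, with the number tested in brackets) and the list median (bar), with the 7 endothelial lists in red. The endothelial medians lie between 0.27 and 0.70, the smooth muscle median at -0.17 and the sympathetic median at 2.09.

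Adipocyte genes lay mostly on the higher side, and none passed the adjusted threshold. White and general adipocyte genes had a median of 0.84, with 22 of 23 positive, and brown adipocyte genes 0.90, with 19 of 20 positive. The white and general median was 0.53 without vehicle 4. The summed white and general list was at 3397 to 9295 CPM in Cdh5-high libraries and 2394 to 4592 CPM in Cdh5-low libraries, and the brown list at 598 to 1658 and 434 to 958 CPM in the same order, with no member of either list at 0 in all libraries. Adipoq, the adipocyte hormone adiponectin, was at 231, 83.1, 92.1, 192 and 103 CPM in the Cdh5-high libraries and at 96.9, 106, 49.7, 99.9 and 52.5 CPM in the Cdh5-low libraries, so the groups overlapped (log2 fold change 0.79, adjusted p = 0.559). Of the members with the smallest p, Ebf2, a factor of brown fat, did not overlap (0.58, adjusted p = 0.443), while Kcnk3, Cebpa and Scd1 did (1.04, 1.07 and 1.09, adjusted p = 0.427, 0.482 and 0.489). Ucp1, which marks brown fat, ran from 37.8 to 444 CPM in Cdh5-high libraries and from 6.63 to 165 CPM in Cdh5-low ones. With the adipocyte list mean as a covariate no gene passed, and 822 lay at an unadjusted p under 0.05. The endothelial median was 0.37, with 64 of 144 members higher and 1 lower at that level, beside 3.77% of all genes higher. The part of fat in the endothelial differences was not tested beyond that fit.

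Nerve genes followed a few libraries, among them the middle libraries celecoxib 4 and rofecoxib 5. All 24 sympathetic neuron genes were positive with a median of 2.09, and their summed level was 71.5 to 579 CPM in Cdh5-high libraries and 79.4 to 234 CPM in Cdh5-low libraries. Th, tyrosine hydroxylase, was at 32.3, 0.648, 22.5, 0.0968 and 0 CPM in the Cdh5-high libraries and at 0.494, 0.0642, 9.40, 0.334 and 0.131 CPM in the Cdh5-low libraries. Dbh, which makes noradrenaline, was at 63.2 and 45.2 CPM in vehicle 4 and rofecoxib 3 and at 23.4 CPM in celecoxib 2, the highest Cdh5-low library. Vehicle 4 and rofecoxib 3 carried the Cdh5-high level, and without them the sympathetic median was -2.09 and the endothelial median 0.39. Schwann cell genes had a median of 0.54, with 17 of 19 positive and a summed level of 370 to 661 CPM in Cdh5-high libraries and 359 to 570 CPM in Cdh5-low ones. The Schwann median was 0.05 (0.0537) without vehicle 4, 0.33 without celecoxib 3 or without rofecoxib 2, and 0.84 without celecoxib 2. The sympathetic median was 1.21 without vehicle 4 and 3.96 without celecoxib 2.

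**Figure D4:**
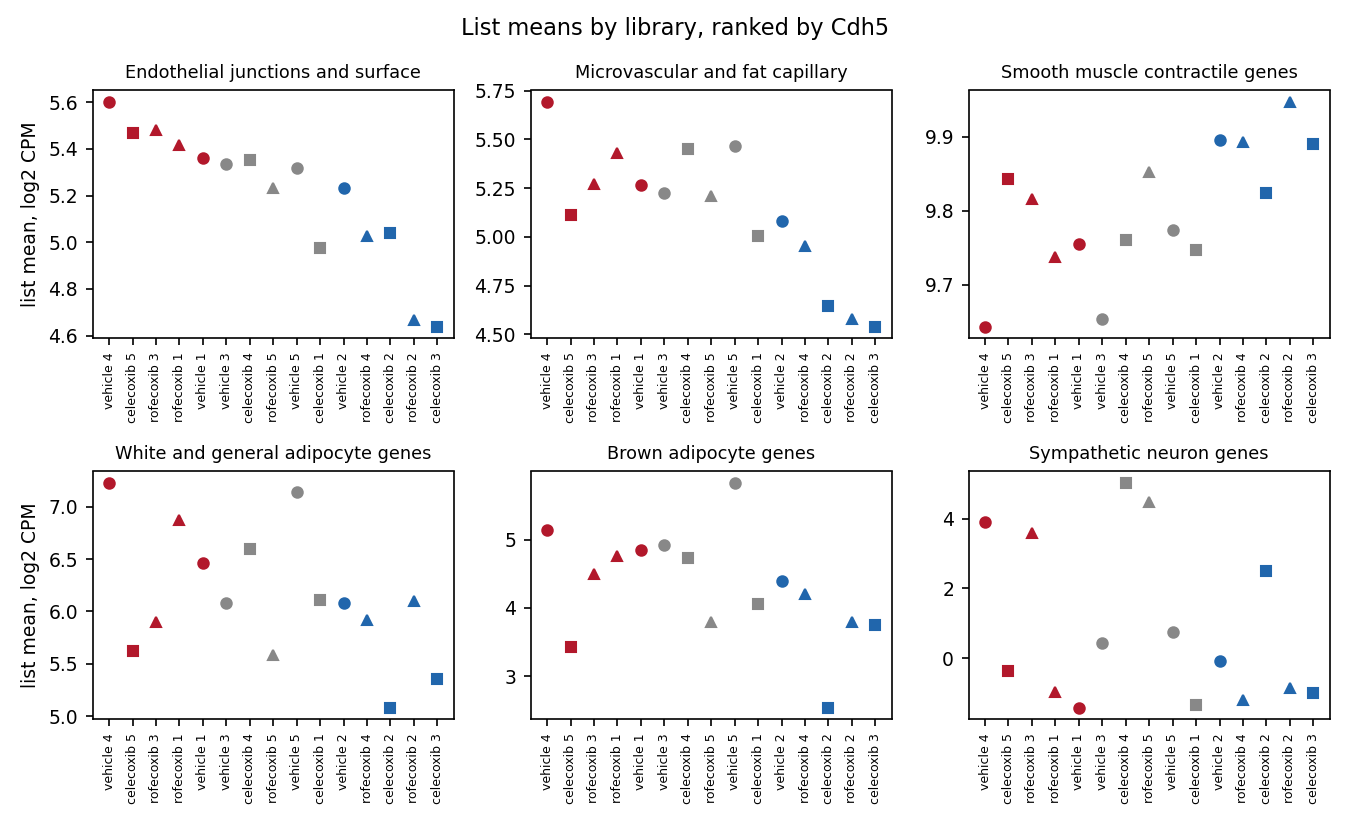
Mean log2 CPM of 6 gene lists (vertical axes, which differ between panels and do not start at 0) in each library, ordered by Cdh5 from highest to lowest, with colour for the Cdh5-high, middle and low libraries and shape for the treatment. The endothelial junction list runs from 5.36 to 5.60 in Cdh5-high libraries and 4.64 to 5.23 in Cdh5-low ones. The sympathetic list is high in the Cdh5-high libraries vehicle 4 (3.91) and rofecoxib 3 (3.58). It is also high in the middle libraries celecoxib 4 (5.04) and rofecoxib 5 (4.49), and in the Cdh5-low library celecoxib 2 (2.49).

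Macrophage genes had a median of 0.34, with 17 of 18 positive and a summed level of 333 to 525 CPM in Cdh5-high libraries and 324 to 421 CPM in Cdh5-low ones. Emr1 (F4/80) and C1qb, both made by macrophages, were at 0.60 and 0.46 with overlap (adjusted p = 0.535 and 0.539). Lymphocyte genes were mostly too low, with 4 of 20 tested and sums of 10.3 to 21.0 and 6.77 to 22.8 CPM in the same order, which stands beside the call on Ly9, and Lck, a T cell kinase, was at 0.88 without overlap (adjusted p = 0.405). Blood cell genes had a median of 0.83, with 10 of 11 positive, on sums of 81.6 to 258 and 33.0 to 131 CPM in the same order. The haemoglobin gene Hba-a1 was at 1.44 (adjusted p = 0.542), and the blood cell median was 0.27 without rofecoxib 1. Fibroblast and adventitial genes had a median of 0.13 (0.0736 without celecoxib 3 and 0.21 without celecoxib 2), with 19 of 20 positive and Clec3b at 0.40 (adjusted p = 0.532). Pericyte genes had a median of -0.04, with Higd1b at 1.003 (adjusted p = 0.409), Vtn at 0.99 without overlap (adjusted p = 0.318), and Rgs5 at 2243 to 3955 CPM in Cdh5-high libraries and 2047 to 3685 CPM in Cdh5-low libraries. Oxidative phosphorylation genes were positive in 30 of 30, with a median of 0.22 (0.14 without vehicle 4) and 0 at an unadjusted p under 0.05 in edgeR. Immediate early, glucocorticoid-responsive, clock and cell cycle genes had medians of -0.07, -0.16, -0.14 and 0.02, where leaving out 1 library gave ranges of -0.15 to 0.00741, -0.23 to 0.0880, -0.18 to -0.0716 and -0.0398 to 0.0800. Medians were -0.11 for skeletal and cardiac muscle genes (with Ckm, muscle creatine kinase, at -0.64, adjusted p = 0.218) and 0.59 for the 5 mesothelial genes tested. The part of these cell types in the endothelial differences was not tested.

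Treating Cdh5 as a continuous measure with treatment as a covariate called 51 genes (0.337%), all higher with Cdh5, of which 17 were among the 144 endothelial members. The 4 highest against the 4 lowest libraries called 24 genes (0.156%), 12 of them endothelial, and 6 against 6 called 20 (0.128%), 6 of them endothelial. With tiers made by Pecam1 the endothelial median was 0.22, with 39 of 143 members higher at an unadjusted p under 0.05, beside 5.16% of all genes, and 2 lower, and Cdh5 itself lay at 0.34 (adjusted p = 0.553).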

How the data were processed

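The authors deposited whole-number counts per gene for 15 libraries on 37681 rows, with mm9 coordinates. CASAVA 1.8.2, STAR 2.5.2a and the build mm9 were named, per the submitters' processing notes. How genes were counted, whether by strand and on which annotation is not given in the sources used here. Other annotated genes also overlap Eng, Notch1, Kank3, Rasip1, B3gnt3, Plvap, Stab1, Cyyr1, Gja5, Dll4, Mcam, Mpv17l, Fam164c, Ckm, Angpt2 and Prox1. Their counts carry the same uncertainty as those of Shank3, Sh3bp5 and Nos3. The deposited totals differed by 0.0971% of their mean, and the depth before any step that equalised them is unknown. The labels state library construction over 3 days but no day per library, so day could not be fitted. All 37 mitochondrial rows held 0 counts.

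Cdh5 tiers were made from deposited totals. One quasi-likelihood fit in edgeR 4.0.16 (R 4.3.3) with robust dispersions, TMM factors and filterByExpr covered the 15 libraries with 3 tiers, and tested high minus low over 15133 genes without Cdh5. P-values were adjusted by the Benjamini-Hochberg method at a threshold of 0.05. The script was tested on simulated data. Library measures had exact two-sided permutation tests. DESeq2 1.42.0, limma 3.58.1 (voom), other tiers, covariates and left-out libraries were alternatives. Figures used matplotlib 3.10.9. Log2 CPM had a prior count of 2.

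The tiers, members and lists were chosen with earlier results of these data known. The rule named, in each direction, the 5 lowest p-values where fewer than 5 genes passed, the 10 genes most like Cdh5 at a mean of at least 1 CPM, endothelial list members, up to 4 members of smallest p in each other list and the member it is best known for. Predicted genes, pseudogenes and Rik or clone names were left out of the genes named by p or by likeness to Cdh5. The mean of at least 1 CPM also held for the lower genes named by p, but not for the higher ones. Ly9, under 1 CPM, is named as 1 of the 4 calls. Which endothelial members are named was chosen after their values were seen. Angpt2, Rgs5 and Ptgs2 were at first left unnamed, after the alternatives showed them near 0 or changing sign, and were then put back. One list member is not reported here. The 25 lists held 516 symbols, of which 514 were found.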

Additional observations from a re-analysis of the deposited data

Results flagged for a closer look

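Of 181 sets of 5 libraries examined for a library far from the others, 11 held one, where chance gives about 5%, or about 1 in 20. In the Cdh5-high libraries, vehicle 4 stood above the rest for Sele (1.36 CPM, the others 0.613 to 0.788), Cxcr4 (4.57 CPM, the others 1.20 to 2.08), Gpihbp1 (24.2 CPM, the others 10.7 to 14.6) and Vtn, which encodes vitronectin (3.94 CPM, the others 2.31 to 2.77). Celecoxib 5 stood above the rest for Vcam1 (96.5 CPM, the others 53.9 to 66.1) and Ptgs2 (90.8 CPM, the others 18.0 to 33.7), and vehicle 1 for F11r (36.4 CPM, the others 34.0 to 34.5). Rofecoxib 3 stood below the rest for Ly9 (0.252 CPM, the others 0.354 to 0.387). In the Cdh5-low libraries, celecoxib 2 stood above the rest for Angpt1 (6.11 CPM, the others 2.17 to 3.09), Th (9.40 CPM, the others 0.0642 to 0.494) and Dbh, dopamine beta-hydroxylase (23.4 CPM, the others 0 to 1.22).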

How the results depend on the processing

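The medians of the 7 endothelial lists kept a positive sign under all 31 alternatives, but the count of called genes did not hold. It was 138 with DESeq2, 51 with continuous Cdh5, 24 for 4 against 4 libraries, 20 for 6 against 6, 2 with treatment as a covariate (Srgn and Notch1), and 0 for the 10 libraries alone or with the adipocyte covariate. It was also 0 without vehicle 4 and rofecoxib 3, an alternative chosen after seeing the data. Leaving out 1 library gave 0 to 18, and the other settings 3 to 6. At an unadjusted p under 0.05 the 3 settings with 0 calls had 1994, 822 and 741 genes. With Pecam1 tiers 4 genes passed, none of them among the 4 of the Cdh5 tiers, and the medians were 0.25 for junctions, 0.14 for transcription factors, 0.24 for VEGF and angiopoietin signalling, 0.0651 for arterial genes and 0.35 for microvascular genes. The microvascular median was 0.39 with the adipocyte covariate. The replicate block called 5 genes, 1 of the 4 among them, with medians of 0.73 for junctions, 0.56 for transcription factors, 0.68 for VEGF and angiopoietin signalling, 0.64 for vasoactive and 0.42 for arterial genes. Pairing by replicate number was not seen over whole profiles: 6 of 15 same-number pairs correlated above 0.1, from -0.72 to 0.78, and 4 libraries were most like their own number. This check cannot exclude handling shared by number, since no day per library is given. The top-10 share differed by -0.738 percentage points for 4 against 4 (exact permutation p = 0.0286, adjusted 0.114). That unadjusted p is the smallest that 4 against 4 allows, so this measure could not pass by itself after adjustment over 4 measures. The scaling factor differed by 0.0318 for 6 against 6 (adjusted exact permutation p = 0.0346), and the deposited total by -12375 to -7431 with 1 library left out.

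Directions turned for 7 named genes, none of which passed the test. Rgs5 was at -0.00274 with DESeq2 size factors and with DESeq2, -0.00281 with no filter, -0.00473 for the 10 libraries, -0.0291 for 4 against 4, -0.00951 with the nerve covariate and -0.16 to 0.11 with 1 library left out. Angpt2 was at 0.0236 on deposited totals, 0.00182 with limma-voom, 0.11 for 6 against 6, 0.0832 with the replicate block and -0.0956 to 0.0751 with 1 library left out. Ptgs2 was at -0.0800 with limma-voom, -0.0386 for 6 against 6, -0.14 with the replicate block and -0.46 to 0.29 with 1 library left out. Th was at -0.64 and Dbh at -0.53 with Pecam1 tiers, and at -3.06 and -4.08 without vehicle 4 and rofecoxib 3, while Dbh was at -0.17 with the nerve covariate. Erg was at -0.0508 with Pecam1 tiers and -0.0168 to 0.0727 with 1 library left out, and Ucp1 at -0.14 with the adipocyte covariate. Medians of 9 of the 25 lists changed sign under some setting, none of them endothelial. They were the pericyte, brown adipocyte, Schwann, sympathetic, skeletal muscle, immediate early, glucocorticoid-responsive, oxidative phosphorylation and cell cycle lists. The cause was not tested. Intervals and tests cover the spread between these mice, and depth before deposit is unknown.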
